A study of Morella rubra with 12 samples.

Results

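The last step of ripening in the pale bayberry strain Baidongkui (BDK) was described by comparing 3 libraries of ripe fruit at 85 days after flowering (stage 3) with 3 libraries of fruit at 70 days (stage 2). These are 6 of the 12 libraries of the series, which also holds BDK fruit at 55 days (stage 1) and ripe fruit of the red cultivar Dongkui (DK) at 85 days, again with 3 libraries each. All are fruits of Chinese bayberry (Morella rubra). The colour label is pink for both BDK stages compared here, and no treatment separates them. The labels do not say whether replicates came from separate trees, so the p-values speak only of how much these samples vary, and that variation may be technical.

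Fleshy fruits ripen by loosening their cell walls, accumulating sugars and aroma compounds, losing organic acids and, in coloured strains, making anthocyanin pigments. This work is carried by enzymes, transporters and regulators whose transcripts are switched on and off in the last weeks on the tree. Transcripts of growth and photosynthesis are usually prominent in young fruit and decline toward ripeness.

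The members were the genes with at least 1 FPKM in 3 or more of the 6 libraries, 18093 of the 119701 assembled genes listed. FPKM expresses the sequenced fragments of a gene relative to gene length and library size. No gene ID comes with a name, so the labelled tissue was not checked against marker genes and no pathway is described. The tested genes held 90.4% to 93.6% of the summed FPKM at stage 2 and 92.1% to 95.8% at stage 3. Of them, 14417 reached 1 FPKM in all 6 libraries. A further 628 passed through the stage 2 libraries alone and 177 through the stage 3 libraries alone, and since such genes had to differ, the 524 and 165 of them that were called carry no weight as evidence.

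Total depth is unknown, because the files hold no read counts. Relative depth, read from the steps between low values, ran from 0.989 to 1.13 at stage 2 and from 0.879 to 1.03 at stage 3. Fewer genes lay above 0 in ripe fruit, with 34627 to 39270 against 41870 to 47865 (exact permutation test, two-sided, p = 0.1, the smallest that 3 against 3 allows). In the genes above 0, the libraries also fell into 2 sets that cross the stages and that no title names. Stage 2 replicate 1 and stage 3 replicates 1 and 2 made up the first. A total of 1385 genes were above 0 in those 3 libraries only and 505 in the other 3 only. Each of the 16 other patterns that cross the stages had 148 to 507, a range that includes the 505. By stage, 1633 genes were above 0 in the stage 2 libraries only and 276 in the stage 3 libraries only. None of the 240 and 42 tested genes with these 2 patterns was called. Such genes mix 0 and higher values within both stages, so this was nearly fixed in advance. It does not show whether the sets affect the calls of other genes.

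Nearly equal numbers of genes rose and fell in the last step, and most of the changes were small. Limma, on log2(FPKM + 1) after trimmed-mean scaling and with Benjamini-Hochberg adjustment, called 8652 genes (47.8% of those tested) at an adjusted p below 0.05. Of these, 4114 (22.7%) were higher and 4538 (25.1%) lower in ripe fruit. In bulk fruit, fewer cells of a type and less RNA per cell cannot be told apart. Genes called higher made up 19.1% of the summed FPKM at 70 days and 38.4% at 85 days, where those called lower made up 34.0% and then 17.0%. These shares describe genes chosen for their change.

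A change of under 1.5-fold was found for 2036 of the genes that rose and 1635 of those that fell. An unadjusted p below 0.05 was found for 9761 genes (53.9%). At least 2-fold changes were reached by 961 higher genes (5.31% of those tested) and 1427 lower genes (7.89%). Changes of 8-fold or more numbered 64 upward and 80 downward. On FPKM as deposited, without the scaling used for the calls, the libraries of both stages did not overlap for 10378 genes (57.4%).

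The balance of rising and falling genes rested on the scaling. The median change of all tested genes was -0.04 on the log2 scale after trimmed-mean scaling and -0.19 on FPKM as deposited. Without scaling factors 2753 genes were called higher and 6126 lower, so 31.0% of calls were upward where the main scaling gave 47.5%. The scaling factors themselves were 1.04 to 1.09 at stage 2 and 0.910 to 0.962 at stage 3. Within the second library set, which has 1 stage 3 library, 5459 genes were called, and within the first, which has 1 stage 2 library, 2473. All BDK stage 1 libraries were placed in the first set and all DK libraries in the second. Both fits take the variance of the lone library from the remaining groups, which therefore differ between the sets.

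The direction of change depended on how abundant a gene was. Genes were sorted into 8 classes by their mean FPKM over the 6 libraries. Among the 3590 genes of 1 to 3 FPKM, 227 rose and 869 fell, so 20.7% of the calls were upward. Among the 4622 genes of 3 to 10 FPKM, 660 rose and 1416 fell. Without the genes that passed the filter through 1 stage alone, these classes had 136 upward and 533 downward calls and 637 upward and 1362 downward calls, with 20.3% and 31.9% upward. The 584 genes below 1 FPKM had 42 upward and 119 downward calls, and without those genes 1 of each, so no lean can be read there.

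Genes of middle and high level leaned the other way. In the class of 10 to 30 FPKM 1445 of 4839 genes rose and 1164 fell. Between 30 and 100 FPKM 1197 of 3044 rose and 618 fell, so that 66.0% of the calls were upward, the largest share of any class. The classes of 100 to 300 and 300 to 1000 FPKM had 395 and 125 genes that rose and 242 and 81 that fell. Above 1000 FPKM the balance turned again, with 23 of 84 genes higher and 29 lower, a difference of 6 genes that was 10 without stage 3 replicate 1 and 2 without stage 3 replicate 2.

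Median changes followed the same course, from -0.22 (log2) at 1 to 3 FPKM through 0.05 at 10 to 30 FPKM to 0.15 at 100 to 300 FPKM, and back to -0.14 above 1000 FPKM. The upward lean of the middle classes is relative to the scaling. On FPKM as deposited it turned downward in each class from 10 to 1000 FPKM, with medians of -0.12 at 10 to 30 FPKM and -0.03 at 100 to 300 FPKM, and with upper-quartile factors in the class of 10 to 30 FPKM. The difference between classes was seen under every scaling. Upward calls made up 14.4% of the calls at 1 to 3 FPKM and 47.2% at 30 to 100 FPKM without factors. With median-of-ratios factors they made up 21.8% and 68.6%. A factor shifts all genes of a library almost alike, so this agreement between scalings was nearly fixed in advance. Relative depth had a mean of 1.07 at stage 2 and 0.939 at stage 3, with overlapping ranges (exact permutation test, p = 0.2), and its part in the losses among low genes was not tested.

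**Figure D1:**
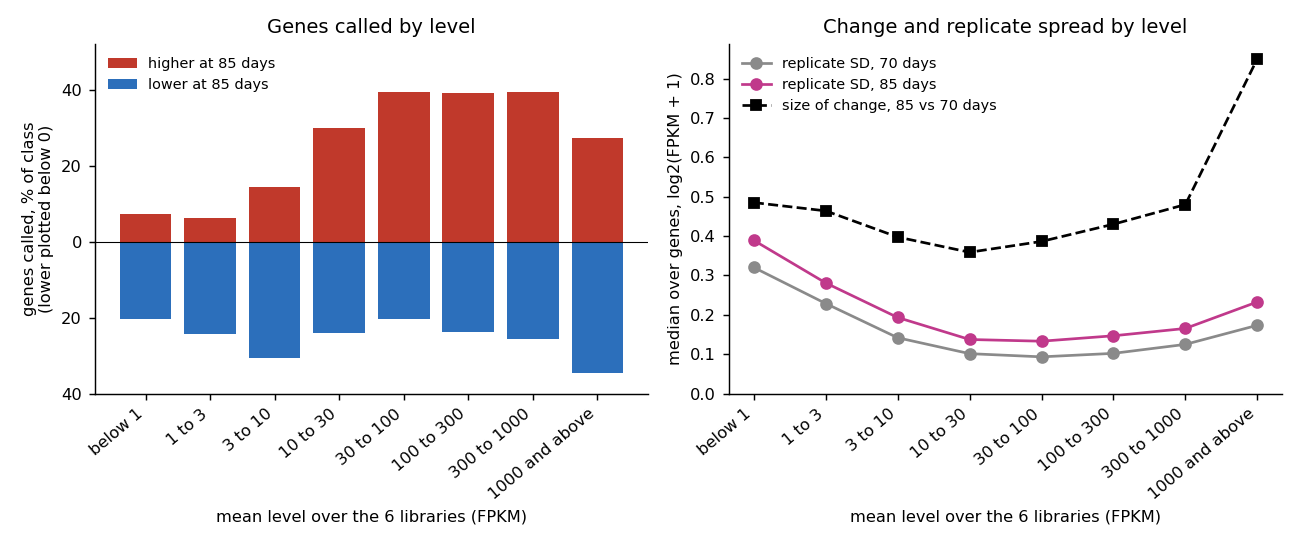
Left, share of genes in each class of mean level (FPKM over the 6 libraries) that limma called higher (red, above 0) or lower (blue, below 0) at 85 days. Right, median replicate SD at 70 days (grey) and 85 days (magenta) and median size of the change (black squares), all on the log2(FPKM + 1) scale. Falling genes prevail from 1 to 10 FPKM and rising genes from 10 to 1000 FPKM after trimmed-mean scaling (the lean of the latter classes turns downward on FPKM as deposited), and the change exceeds both SDs in every class.

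The share of genes called rose with level up to 1000 FPKM. It was 30.5% at 1 to 3 FPKM (21.6% without the genes that passed through 1 stage alone), 44.9% at 3 to 10 FPKM, 59.6% at 30 to 100 FPKM, 65.0% at 300 to 1000 FPKM and 61.9% above 1000 FPKM. The median size of a change, in either direction, varied less, from 0.36 at 10 to 30 FPKM to 0.49 below 1 FPKM, except above 1000 FPKM, where it was 0.85. Changes of at least 2-fold were called for 11.5% of genes at 10 to 30 FPKM and 39.3% above 1000 FPKM. On the log2(FPKM + 1) scale the changes of genes near 1 FPKM are understated.

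**Figure D2:**
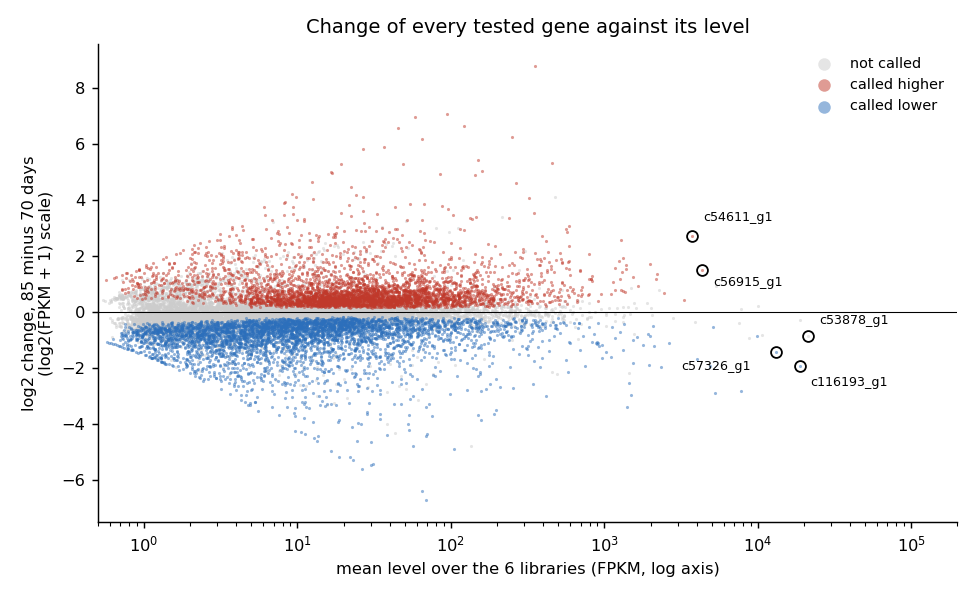
Log2 change from 70 to 85 days (vertical, on the log2(FPKM + 1) scale) against the mean level over the 6 libraries (horizontal, FPKM on a log axis) for the 18093 tested genes, with genes called higher in red, lower in blue and not called in grey. Circles mark the 5 genes named in the text. Of the circled genes, 2 rose, 2 fell and 1 was not called.

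Replicates of ripe fruit differed more among themselves than replicates at 70 days. The median SD over genes was 0.13 at stage 2 and 0.18 at stage 3 (log2 scale), and it was wider at stage 3 for 64.5% of the genes, a share of 62.4% to 71.4% in the 8 classes. The other groups, BDK stage 1 and DK, had median SDs of 0.14 and 0.13. Whether the spread of ripe BDK fruit differs beyond what 3 libraries show was not tested. Pearson's r across the tested genes was 0.956 to 0.969 within stage 2, 0.938 to 0.958 within stage 3 and 0.874 to 0.905 between the stages (genes are not independent replicates).

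Spread was smallest at middle levels. The median SD at stage 3 was 0.39 below 1 FPKM, 0.13 at 30 to 100 FPKM and 0.23 above 1000 FPKM. Among genes with a stage mean of at least 100 FPKM, the highest replicate exceeded the lowest more than 2-fold for 50 of 1411 genes at stage 2 and 93 of 1392 at stage 3. The median coefficient of variation of these genes was 7.94% and 10.1%. No single library carried the spread: each stage 2 library lay farthest from its group's mean for 32.5% to 33.8% of genes, and stage 3 replicates 1, 2 and 3 for 35.7%, 34.7% and 29.6%.

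The most abundant genes held a smaller share of the transcripts in ripe fruit. Taken library by library, the 10 highest genes had 15.1%, 18.0% and 17.9% of the summed FPKM in the 3 stage 2 libraries and 11.5%, 9.33% and 11.1% in the 3 stage 3 libraries. The ranges do not overlap, and the difference was -6.35 percentage points (exact permutation test, two-sided, p = 0.1, the smallest possible). The share of the 100 most abundant genes fell from 34.7% ± 2.29 to 27.8% ± 1.45 (SD, n = 3, exact permutation test, p = 0.1). Between 393 and 563 genes made up 50% of the summed FPKM at stage 2 and between 543 and 635 at stage 3, ranges that overlap (exact permutation test, p = 0.2).

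**Figure D3:**
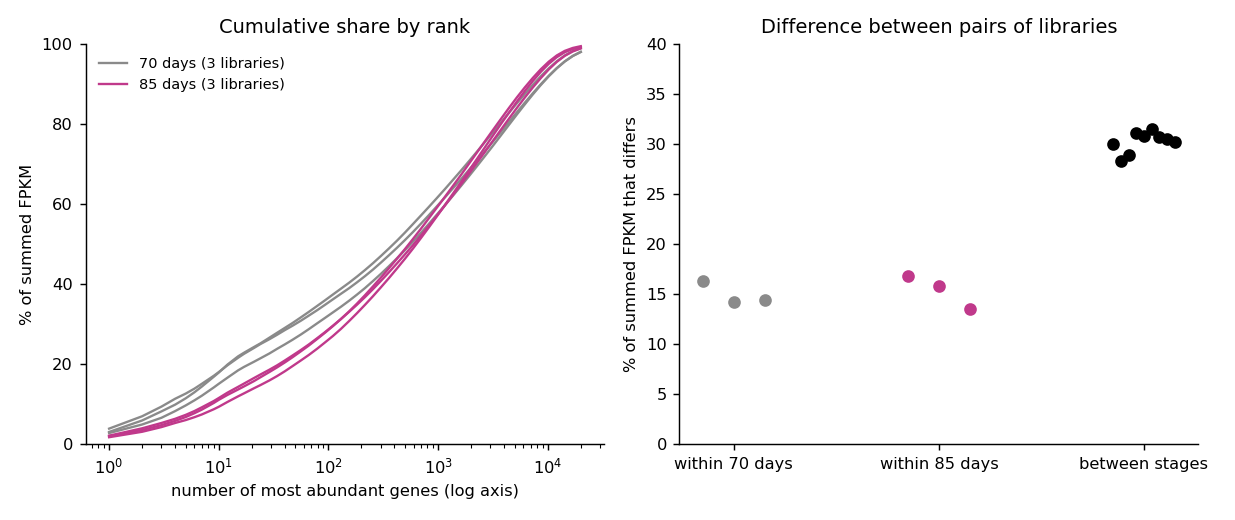
Left, cumulative share of the summed FPKM (%) held by the most abundant genes of each library (number of genes on a log axis), for 70 days (grey) and 85 days (magenta). Right, share of the summed FPKM (%) that differs between 2 libraries, each point 1 pair. At the 10 most abundant genes the grey curves lie at 15.1% to 18.0% and the magenta curves at 9.33% to 11.5%, and all 9 pairs between stages lie above all 6 pairs within stages.

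Weighted by abundance, the difference between stages exceeded that between replicates. The share of the summed FPKM that differed between 2 libraries was 14.2% to 16.3% within stage 2, 13.5% to 16.8% within stage 3 and 28.3% to 31.5% between stages. The mean between stages exceeded that within stages by 15.1 percentage points (exact permutation over the 6 libraries, p = 0.1, the smallest possible).

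The summed FPKM was lower in ripe fruit, at 817744 to 882385 against 1005812 to 1032727. The 84 genes above 1000 FPKM made up 68.3% of this net drop. They held 29.97%, 32.5% and 34.3% of the summed FPKM in the stage 2 libraries and 26.2%, 23.5% and 25.5% in the stage 3 libraries. Every stage 2 library lay above every stage 3 library. The share of tested genes below 10 FPKM overlapped between stages, at 3.597% to 4.11% at stage 2 and 3.32% to 3.92% at stage 3.

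Of the 10 most abundant genes at stage 2, 9 had a lower mean at stage 3 and 5 of these were called lower, with 0 called higher. Their combined share was 16.8% ± 1.68 at stage 2 and 8.85% ± 1.28 at stage 3 (SD, n = 3), a decline that their choice at stage 2 favours. The lists of the 10 most abundant genes at each stage shared 7 genes, those of the 50 most abundant shared 28 and those of the 100 most abundant shared 66.

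The largest loss of mean FPKM was that of c116193_g1, the most abundant gene of 70-day fruit. Its levels were 27782, 31818 and 31353 FPKM at 70 days and 7024, 5393 and 9198 FPKM at 85 days. The stages are far apart, and its rank fell from 1 to 5. The means of 30318 ± 2209 and 7205 ± 1909 FPKM (SD, n = 3) differ 4.21-fold, and the scaled log2 change was -1.92 ± 0.25 (SE, limma adjusted p = 0.000166).

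Gene c57326_g1 took the next largest loss among the called genes. Its stage 2 libraries were at 16822, 24868 and 17433 FPKM and its stage 3 libraries at 6307, 5885 and 7071 FPKM. Replicate 2 was the highest at stage 2, and no ripe library came near any of the 3. The log2 change was -1.42 ± 0.24 (SE, limma adjusted p = 0.000744), a 3.07-fold ratio of the deposited means. Both falling genes had been higher still at 55 days, at 49418 ± 3892 and 26019 ± 3846 FPKM, and in ripe DK they were at 6533 ± 76.5 and 4316 ± 512 FPKM (SD, n = 3).

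The largest gain of mean FPKM among the called genes was made by c54611_g1. It had 922, 1230 and 1113 FPKM at stage 2 and 6851, 5528 and 6766 FPKM at stage 3, which put all ripe libraries far above the others. Its rank rose from 80 to 10. The log2 change was 2.74 ± 0.26 (SE, limma adjusted p = 2.51e-05), with a 5.86-fold ratio of means.

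Gene c56915_g1 gained next most, from 2137, 2255 and 2910 FPKM to 8337, 4867 and 5466 FPKM. Stage 3 replicate 1 stood above the other two, and the lowest ripe library was still above every stage 2 library. The log2 change was 1.51 ± 0.25 (SE, limma adjusted p = 0.000681), a 2.56-fold ratio. In ripe DK c54611_g1 was at 4873 ± 249.6 FPKM and c56915_g1 at 5213 ± 1101 (SD, n = 3).

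The changes of c116193_g1, c57326_g1 and c56915_g1 lost their calls within either library set, where 1 stage is a single library. Their log2 changes there were -1.95 and -1.60, -1.25 and -1.38, and 1.79 and 1.27 in the first and second set, with adjusted p of 0.337 and 0.201, 0.404 and 0.170, and 0.0741 and 0.0905. Over the 18 other settings tried all 3 were called, and c54611_g1 was called in all 20.

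Replicate spread kept the call from c53878_g1, the most abundant gene over both stages. It was at 16881, 39885 and 29622 FPKM at stage 2 and at 18566, 9583 and 13048 FPKM at stage 3. One ripe library lay above the lowest stage 2 library, so the groups overlap. The log2 change of -0.85 ± 0.45 (SE) had a limma adjusted p of 0.147, and none of the 20 other settings called it (0.0594 to 0.943). It ranked second at both stages by mean, after a rise from 2928 ± 1644 FPKM at 55 days (SD, n = 3).

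**Figure D4:**
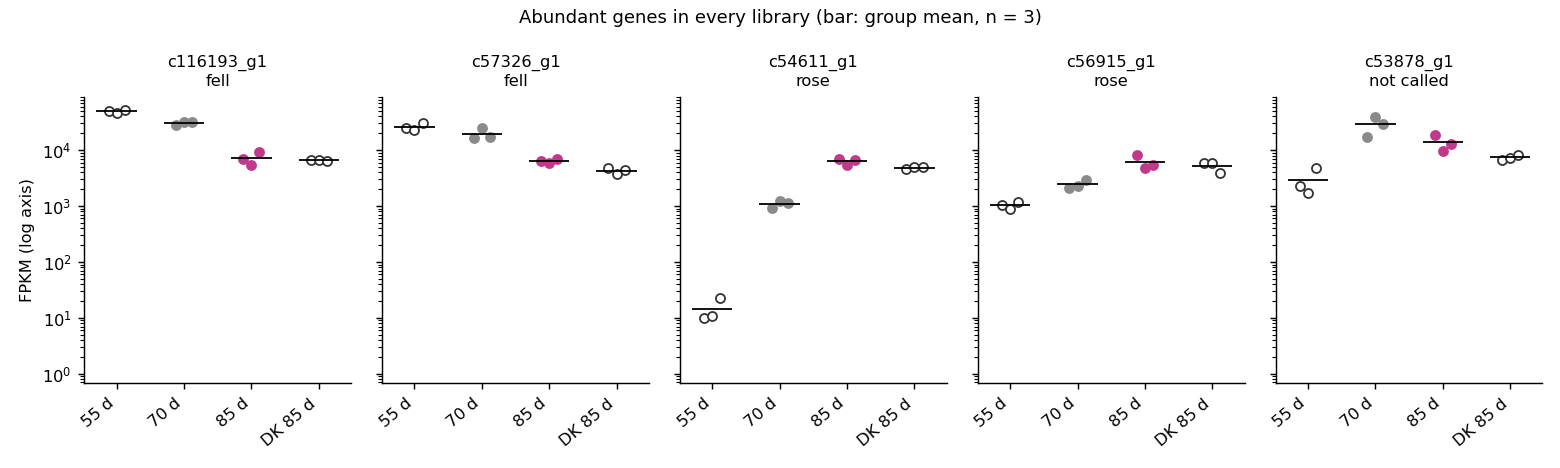
FPKM (log axis) of the 5 named genes in each library, with BDK at 55, 70 (grey) and 85 days (magenta) and DK at 85 days, and bars for group means of 3 libraries. The 70-day and 85-day points are apart for the 4 genes that fell or rose, and overlap for c53878_g1.

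Abundant transcripts that entered or left in the last step were taken as those called, changed at least 2-fold and crossing a mean of 300 FPKM. Of the 491 genes at that level at either stage, 333 (67.8%, against 47.8% of all tested genes and 65.0% of those of 300 to 1000 FPKM) were called, 191 higher and 142 lower, and 284 were at that level at both stages. Crossing was read on FPKM as deposited and the fold on the scaled values. A total of 71 genes entered and 27 left, and without scaling factors 59 and 33. Another 39 crossed 300 FPKM upward and 70 downward with a smaller or uncalled change. A further 28 genes at that level at both stages rose and 28 fell at least 2-fold. Since the lists were chosen by these libraries, their values at stages 2 and 3 are a description.

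The 71 entering genes had stage 2 means of 0.89 to 299.9 FPKM, with a median of 182, and stage 3 means of 302 to 1045 FPKM, with a median of 515. They held 1.21%, 1.21% and 1.15% of the summed FPKM in the stage 2 libraries and 4.58%, 4.604% and 4.70% in the stage 3 libraries. The libraries of a stage are close together in this sum. Most changes were moderate, with 49 genes between 2-fold and 4-fold, 13 between 4-fold and 8-fold and 9 above. On FPKM as deposited, the libraries of both stages did not overlap for 69 of the 71 (57.4% of all tested genes), which their choice by call and fold favours.

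The 9 genes that rose at least 8-fold had stage 2 means of 0.89 to 136 FPKM. Their stage 2 libraries ran from 0 to 147 FPKM and their stage 3 libraries from 302 to 1211 FPKM. Fitted log2 changes ran from 3.09 to 8.80, and the highest limma adjusted p among them was 0.0255. In ripe DK these 9 genes had means of 246 to 1128 FPKM. In 5 of them BDK stage 1 replicate 1 was more than 5 times as high as both other 55-day libraries, and all 9 were called without that library (highest limma adjusted p 0.000143).

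The 27 leaving genes had stage 2 means of 314 to 2556 FPKM, with a median of 461, and stage 3 means of 25.4 to 286 FPKM, with a median of 151. They held 1.63%, 1.47% and 1.75% of the summed FPKM in the stage 2 libraries and 0.453%, 0.494% and 0.441% in the stage 3 libraries. In 3 of them the fall was at least 8-fold, with log2 changes of -3.62 to -3.39. Their replicates spread more than those of entering genes, with a median coefficient of variation at stage 3 of 25.9% against 14.3%, a difference that was not tested. At stage 3, 8 of the 27 leaving genes and 2 of the 71 entering genes differed more than 2-fold between replicates.

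The levels at 55 days and in DK were not used to choose these genes, though those libraries helped to set the variance in the model. Fitted on the 6 libraries alone, 70 genes entered and 26 left, 69 and 26 of them the same genes. At 55 days 60 of the 71 entering genes had means below 300 FPKM and 29 below 100 FPKM, with a median of 131 FPKM. For 5 of the 71 the 55-day mean rests on stage 1 replicate 1, which was more than 5 times as high as both other libraries. Of the 27 leaving genes 19 were at 300 FPKM or more at 55 days and 6 at 1000 FPKM or more, and 11 were higher then than at 70 days. In ripe DK 58 of the entering genes were at 300 FPKM or more and 21 of the leaving genes were below it. On the log scale DK was nearer to BDK stage 3 than to stage 2 for 65 of 71 and 22 of 27. These counts in DK have no share over all tested genes beside them and are a description. In DK the combined share was 3.998% ± 0.23 for the entering genes and 0.660% ± 0.15 for the leaving genes (SD, n = 3).

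**Figure D5:**
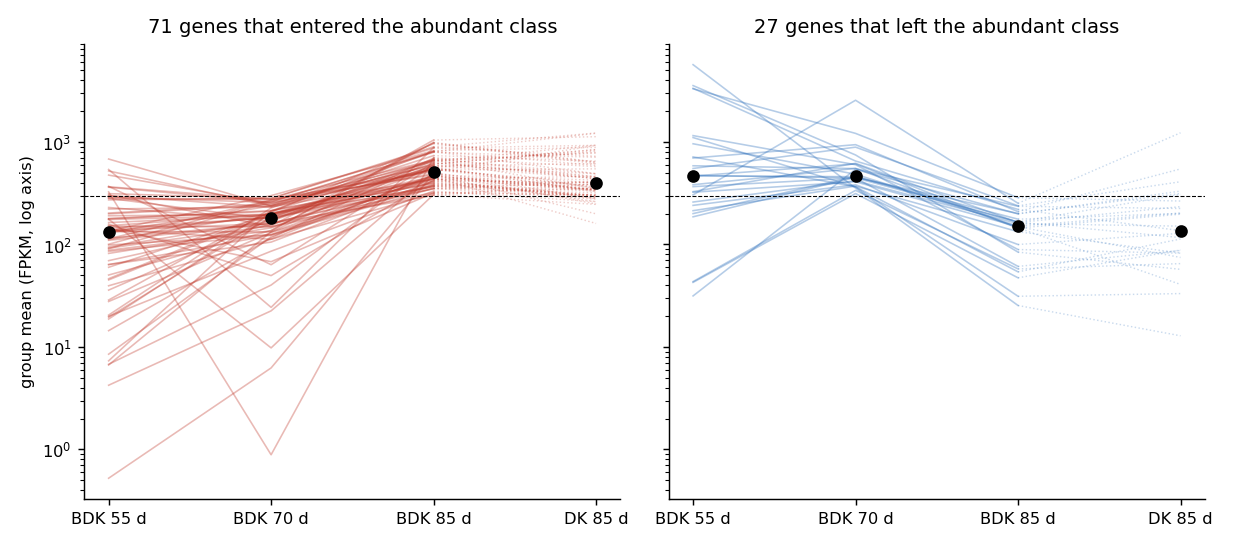
Group means (FPKM, log axis) of the 71 genes that entered (left) and the 27 that left (right) the class of at least 300 FPKM (dashed line), 1 line per gene across BDK at 55, 70 and 85 days, with dotted lines to DK at 85 days and black points for the medians. The medians at 70 and 85 days are 182 and 515 FPKM for entering genes and 461 and 151 FPKM for leaving genes, and in DK 395 and 136 FPKM. For 5 entering genes the 55-day mean rests on stage 1 replicate 1.

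Few tested genes were switched fully. Of the 18093, 85 were listed at 0 in all 3 ripe libraries and above 0 at stage 2, at a median of 2.73 FPKM, and 13 of these had a stage 2 mean of at least 10 FPKM. In the other direction 26 genes were listed at 0 in all 3 stage 2 libraries, at a median of 3.11 FPKM in ripe fruit, and 5 had a stage 3 mean of at least 10 FPKM. The highest of the latter was at 85.5, 135 and 131 FPKM in the 3 ripe libraries. In DK 58 of the 85 were at 0 in all 3 libraries and 11 of the 26 were above 0 in all 3. An exact 0 is the listed value and does not show that a transcript was absent.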

How the data were processed

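Per the labels' protocols, Trizol RNA from frozen fruits went into Illumina libraries. Per the file headers, what the authors deposited for each library is a list of genes with an FPKM value to 2 decimals. Assembler, aligner, counter and filters: not given in the sources used here. Gene IDs have the form of a de novo assembly, and levels of genes within 1 cluster are uncertain, since reads may be shared among them.

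Groups and replicate numbers come from the titles, days from the series' design. FPKM was scaled by trimmed-mean factors, which used genes with 1 FPKM or more in the pair and dropped the outer 30% of log ratios and 5% of levels on either side. Limma 3.58.1 (R 4.3.3, variance trend on) was run on log2(FPKM / factor + 1). One model of the 4 groups held all 12 libraries and no covariate, for genes with at least 1 FPKM in 3 or more of the 6 libraries compared, and p-values were adjusted over all 18093. The fit was also run on simulated data with known changes in a small part of the genes. Their noise was drawn from the model's own SDs and the factors were taken as known. That run therefore says nothing about the scaling or the lean by level. Exact permutation tests used scipy 1.17.1. Levels and shares are FPKM as deposited. Relative depth is the most frequent log2 ratio between libraries among values of 0.3 to 1.5 FPKM. No 2 libraries were copies, with at most 2.23% of tested genes equal in a pair.

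Members, lists and tests were chosen with earlier results of these data known. Named genes are the 2 largest gains and 2 largest losses of mean FPKM among called genes without overlap, and the most abundant gene not called. Upper-quartile factors were taken over the tested genes, a choice made after the values had been seen.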

Additional observations from a re-analysis of the deposited data

How the results depend on the processing

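Numbers of calls ran from 7038 to 8879 over the other scalings, filters, pseudocounts, the model of the 6 libraries alone and the library set as a term. They ran from 7385 to 8346 with 1 of the 6 libraries left out. The share called depended on the filter, since the main fit called 8652 of 18093 genes. A filter of 5 FPKM gave 7038 of 12452 genes. A filter on a mean of 1 FPKM gave 7471 of 31308, and no filter 7245 of 80254. With a 2-fold minimum 2388 genes were called, 961 higher and 1427 lower. The first library set alone gave 2473 (1273 higher, 1200 lower) and the second 5459 (2702 higher, 2757 lower), each with 1 lone library. The cause of these lower numbers was not tested beyond the smaller number of samples. FPKM summed per assembly cluster gave 6739 calls among 13958 clusters. Replicate numbers were not used as a pairing in the main fit. Same-numbered libraries of both stages deviated from their group means with r of 0.01, -0.08 and 0.04. Differently numbered ones had r of -0.10 to 0.10. Such values cannot show whether the samples were paired. The fit with the replicate block called 8527 genes. No call changed sign and stayed called under any setting.

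Higher minus lower calls among genes of at least 10 FPKM reversed to -969 without scaling factors and shrank to 82 with upper-quartile factors. Without factors the difference was -2404 below 10 FPKM, and it was -777, -99, -72 and -8 in the classes of 10 to 30, 30 to 100, 100 to 300 and 300 to 1000 FPKM. With upper-quartile factors it was -254 at 10 to 30 FPKM. The trimmed-mean values were 1051 and -1475. Without the genes that passed the filter through 1 stage alone, left out after seeing the data, they were 1057 and -1122. These shifts follow from the factors, which differ between the stages.

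At a limit of 100 FPKM 129 genes entered and 90 left, and at 1000 FPKM 18 entered and 19 left. In the first library set alone 16 left, and the cause was not tested. With 1 of the 6 libraries left out, 63 to 71 entered, 62 to 68 of them among the 71, and 26 to 28 left, 25 or 26 of them among the 27. Leaving out BDK stage 1 replicate 1, chosen after seeing the data, gave 8365 calls, 71 entering and 27 leaving genes. The share of the 10 most abundant genes changed by -7.30 to -5.69 percentage points, that of the 100 most abundant by -8.21 to -5.997, and the excess difference between stages was 14.5 to 15.7 points in these fits. Without read counts no counting error can be given, and calls below 3 FPKM are limited by replicate SDs of 0.23 or more.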

Other observations

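A group of genes that rose in the last step was already high in 1 library of young fruit. Among the tested genes, 24 had at least 10 FPKM in BDK stage 1 replicate 1 and over 5 times the level of both other stage 1 libraries. Of these, 15 rose at least 2-fold from 70 to 85 days, 62.5% where 5.31% of all tested genes did, and 0 were called lower. The 15 had medians of 48.3 FPKM in that young library and 0.48 in the mean of the other stage 1 libraries. Their medians were 0.25 at stage 2, 89.97 at stage 3 and 48.7 in DK. A gene with a stage 2 mean at or below 0.25 FPKM, the median of the 15, passed the filter through stage 3 alone and had to be higher there. This does not cover all 15, since an entering gene among them had 29.5, 26.0 and 17.5 FPKM at stage 2. Because the 62.5% includes genes whose rise was fixed by the filter, it carries no weight as evidence. The same search gave 14 genes for stage 1 replicate 2, with 0 that rose, and 220 for replicate 3, with 8. Of the 71 entering genes, 5 belong here, at 433 to 1569 FPKM in the young library and 0 to 27.9 FPKM in the other two. The pattern was noticed in these data, and its source was not tested.

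Genes of 1 assembly cluster can share reads. Of the 2547 clusters with several tested genes, which hold 6834 genes, 1142 held a gene called higher. Of these clusters, 369 (32.3%) also held a gene called lower, where 25.1% of all tested genes, counted singly, were called lower. A cluster can hold several partners, so these shares cannot be compared directly and show no excess. Whether the 32.3% is more or less than unrelated genes would give was not tested. The entering gene that reached 881, 860 and 908 FPKM in the 3 ripe libraries, from 29.5, 26.0 and 17.5 FPKM at 70 days, shares its cluster with the most abundant of the genes listed at 0 in ripe fruit, which was at 104, 70.6 and 11.1 FPKM at 70 days. Of the 71 entering genes, 27 lay in clusters with several tested genes, and for 9 of them a partner was called lower. How reads were divided among partners was not tested.

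Many genes were found in single libraries. Of the genes not tested, 28741 reached 1 FPKM in exactly 1 of the 6 libraries, between 4405 and 7186 in each stage 2 library and between 2318 and 5142 in each stage 3 library.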
